A study of Mus musculus with 30 samples.

Results

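The nuclear genes of the mitochondrial respiratory chain were followed in mouse muscle stem cells, complex by complex. They were chosen by symbol: subunits of complex I (Nduf genes), complex II (Sdha to Sdhd), complex III (Uqcr genes and Cyc1), complex IV (Cox4 to Cox8 genes) and complex V (Atp5 genes), with cytochrome c (Cycs). The rule found 92 genes of 55450 listed, 91 of them in each deposited table: 40 of complex I, 4 of complex II, 9 of complex III, 19 of complex IV, 19 of complex V and Cycs. Among them Ndufa11b, Ndufb4c, Ndufs6b and Cox6c2 are annotated as processed pseudogenes. After a filter on low counts, 88 to 90 of these genes could be tested.

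Complexes I, II, III and IV carry electrons from NADH and succinate to oxygen, with cytochrome c as the mobile carrier between complexes III and IV, and most of them pump protons as they do so. Complex V, the ATP synthase, uses the proton gradient to make ATP. All subunits of complex II and most subunits of the others are encoded in the nucleus, while the mitochondrial genome encodes a core few. Quiescent satellite cells are known for few mitochondria and a low metabolic rate, which rise when the cells are activated.

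The series holds 30 libraries in 15 groups, with 2 libraries in each group. The cells were hind limb satellite cells (muscle stem cells) of C57BL/6 mice, and no transgene or deletion is labelled. Per the labels, mice were perfused with the fixative PFA before cell isolation, and injury was by BaCl2 injection. One deposited count table holds uninjured cells and cells taken 0.5, 1, 2, 4, 8, 16, 32 and 60 h after injury, and a second holds cells taken 7, 14 and 28 days after injury. The third holds old cells: oQSC (fixed in place, no injury), oASC (2.5 days after injury) and oFISC (freshly isolated, for which the labels also record BaCl2 injury). No age in months or weeks is used here for any group. Cells without the old label are referred to as younger. No label says that the libraries of a group came from separate animals, so every p-value measures the spread between these samples, which may be technical.

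Library totals ran from 9182407 to 57441790 counts, and the respiratory chain genes took 0.215 to 1.97% of them. Levels are given as CPM, a gene's counts divided by its library's scaled total in units of 1e+06 counts, in the order library 1, library 2. Gene models that overlap ribosomal RNA or satellite repeats took 46.8% and 35% of counts in the uninjured libraries, 3.59 to 9.74% from 0.5 to 32 h, and 26.9 and 29.4% at 60 h. The satellite cell marker Pax7 was at 1746 and 1555 CPM in uninjured cells and at 84.5 and 72.7 CPM in oQSC. Myod1, which is made by activated cells, was at 41.4 and 50.8 CPM in uninjured cells and at 1070 and 1536 CPM in oQSC, so the libraries labelled uninjured old differed in state markers from those labelled uninjured. From 0.5 to 4 h the libraries of a group stood apart: Myod1 was at 119, 162, 82.7 and 88.3 CPM in 1 library of each group and at 1508, 1790, 1882 and 2165 CPM in the other. The 10 satellite cell markers summed to 2659 to 25000 CPM over all libraries, and 8 fibro-adipogenic markers to 498 to 2867 CPM. The satellite cell sum was 4264 to 4454 CPM in uninjured cells and 22170 to 25000 CPM in oQSC, the opposite direction to Pax7 alone. For 12 myofibre markers the sum was 48.7 to 866 CPM, and for 8 pericyte and smooth muscle markers 51.4 to 772 CPM. For 5 erythroid markers it was 3.19 to 652.5 CPM, for 8 macrophage markers 3.44 to 454 CPM and for 8 endothelial markers 14.6 to 175 CPM. In bulk RNA, fewer cells of a type and less RNA per cell cannot be told apart.

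The summed level of the respiratory chain genes was higher at later times of the time course and higher in old than in younger uninjured cells. On a scale common to all 30 libraries it was 5768 and 5795 CPM in uninjured cells. It was between 8219 and 9437 CPM from 0.5 to 8 h, 11520 and 10510 CPM after 16 h, 12170 and 12450 CPM after 32 h, and 16860 and 17400 CPM after 60 h. It was 9362 and 13960 CPM after 7 days, 15890 and 15250 CPM after 14 days, and 7250 and 6526 CPM after 28 days. All 22 injured libraries of younger cells thus lay above both uninjured libraries, with 28 days nearest to them. In old cells the sum was 12270 and 11210 CPM in oQSC, 3503 and 4075 CPM in oFISC, and 18070 and 19660 CPM in oASC. No library of one old group overlapped another.

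**Figure D1:**
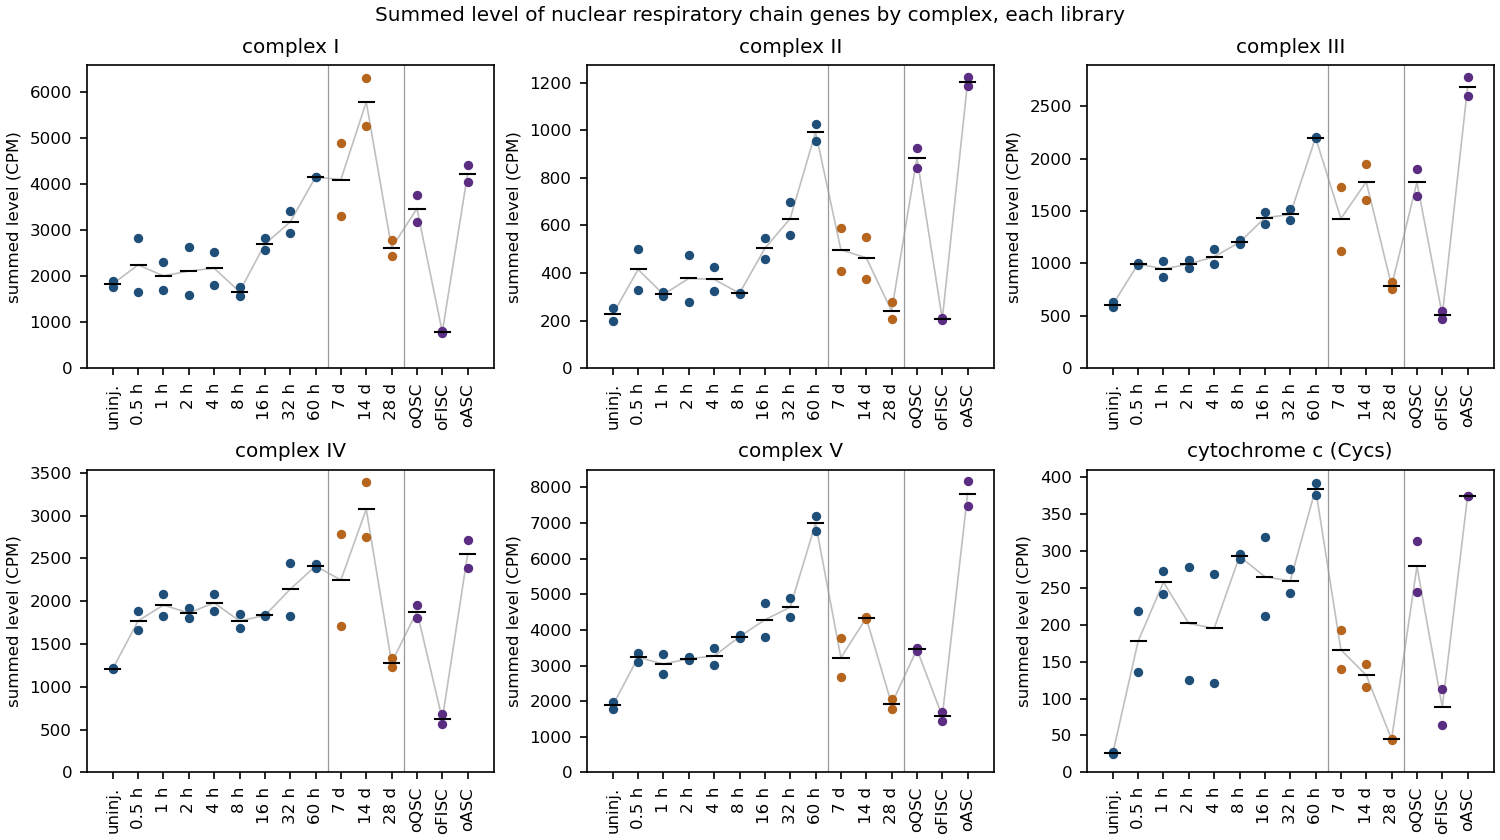
Summed level of the nuclear respiratory chain genes of each complex (vertical axis, CPM from 0, on the scale of all 30 libraries) against group (horizontal axis), with 1 point per library. Complex V summed to 1973 and 1787 CPM in uninjured cells, 6783 and 7197 CPM after 60 h and 7486 and 8164 CPM in oASC, and complex I was highest at 14 days, at 6307 and 5266 CPM.

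The complexes did not share 1 order of groups. Complex I summed to 1774 and 1888 CPM in uninjured cells, to 1755 and 1568 CPM after 8 h and to 4150 and 4158 CPM after 60 h. Both 8 h libraries thus lay below both uninjured ones, library 1 only slightly. Complex V summed to 3853 and 3760 CPM after 8 h, above both uninjured libraries. Complex II summed to 199 and 255 CPM in uninjured cells and to 956 and 1028 CPM after 60 h. Complex III went from 582 and 633 CPM to 2194 and 2210 CPM between the same groups. Complex IV went from 1215 and 1206 CPM to 2388 and 2434 CPM. These sums weigh abundant genes most, so single genes follow.

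The order of the genes by level per kilobase of exon also shifted. In uninjured cells Cox4i1, a core-associated subunit of complex IV, was first at 256.5 CPM per kb, followed by Cox8a at 224, Cox6a1 at 210 and Ndufa2 at 203 CPM per kb. At 60 h Atp5b, the catalytic beta subunit of the ATP synthase, was first at 543 CPM per kb, having been 11th. Atp5a1, the alpha subunit, moved from 16th to 4th at 359 CPM per kb, and Cox4i1 was 5th at 317 CPM per kb. Atp5e, the epsilon subunit, went from 6th to 37th, and Ndufa13, a complex I accessory subunit, from 10th to 49th. These are mean levels of 2 libraries, and the ranks carry no test.

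Against uninjured cells, the number of respiratory chain genes that were higher grew with time. edgeR's quasi-likelihood test (Benjamini-Hochberg adjusted p under 0.05 over 22479 genes) called 10 higher and 1 lower of 88 at 0.5 h, where 10.3% of all genes tested were called, 6.88% higher and 3.42% lower. The counts were 10 and 1 at 1 h (10.2% of all genes, 6.57% higher, 3.64% lower), and 10 and 1 at 2 h (9.31% of all genes, with 6.32% higher and 2.99% lower). At 4 h they were 14 and 1 (11%, with 7.18% higher and 3.8% lower). At 8 h they were 19 and 11 (30.1%, with 16.1% higher and 14% lower). At 16 h they were 35 and 1 (22.7%, with 14.2% higher and 8.5% lower), at 32 h 38 and 0 (20.5%, with 14.1% higher and 6.44% lower), and at 60 h 54 and 0 (28.3%, with 15.5% higher and 12.8% lower). The share of members called was near the background at 0.5, 1, 2 and 8 h and above it from 16 h on. The 8 macrophage markers summed to 4.87 and 3.44 CPM in uninjured cells and to 215 and 48.2 CPM after 60 h, and their part in the members' levels was not tested. The median log2 fold change of the members was 0.40, 0.17, 0.72, 0.92 and 1.32 at 0.5, 8, 16, 32 and 60 h, beside 0.24, 0, 0.11, 0.25 and 0 for all genes tested. A test for any change over the 9 groups called 50 members (24.7% of all genes), with the ATP synthase subunits Atp5mpl and Atp5o (ENSMUSG00000022956.11) first by p.

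These counts fell when 1 library was left out, with the remaining library of that group assumed to vary like the other groups. At 60 h the count of 54 was 33 without uninjured 1, 33 without uninjured 2, 39 without 60 h library 1 and 40 without 60 h library 2. At 16 h the count of 36 was 10 and 13 without uninjured 1 and 2, and 12 and 17 without 16 h library 1 and 2. At 32 h the count of 38 was 12 and 17 without uninjured 1 and 2, and 19 and 24 without 32 h library 1 and 2. Up to 4 h the counts were 0 to 1 without uninjured 1, 2 to 3 without uninjured 2, and 2 to 14 without a library of the injured group. Leaving out the libraries of 0.5 to 4 h, an alternative chosen after the data were seen, gave 42, 48, 49 and 64 calls at 8, 16, 32 and 60 h. With RLE scaling 22 members were called at 16 h, and the median of all genes there moved from 0.11 to -0.03 on the log2 scale.

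**Figure D2:**
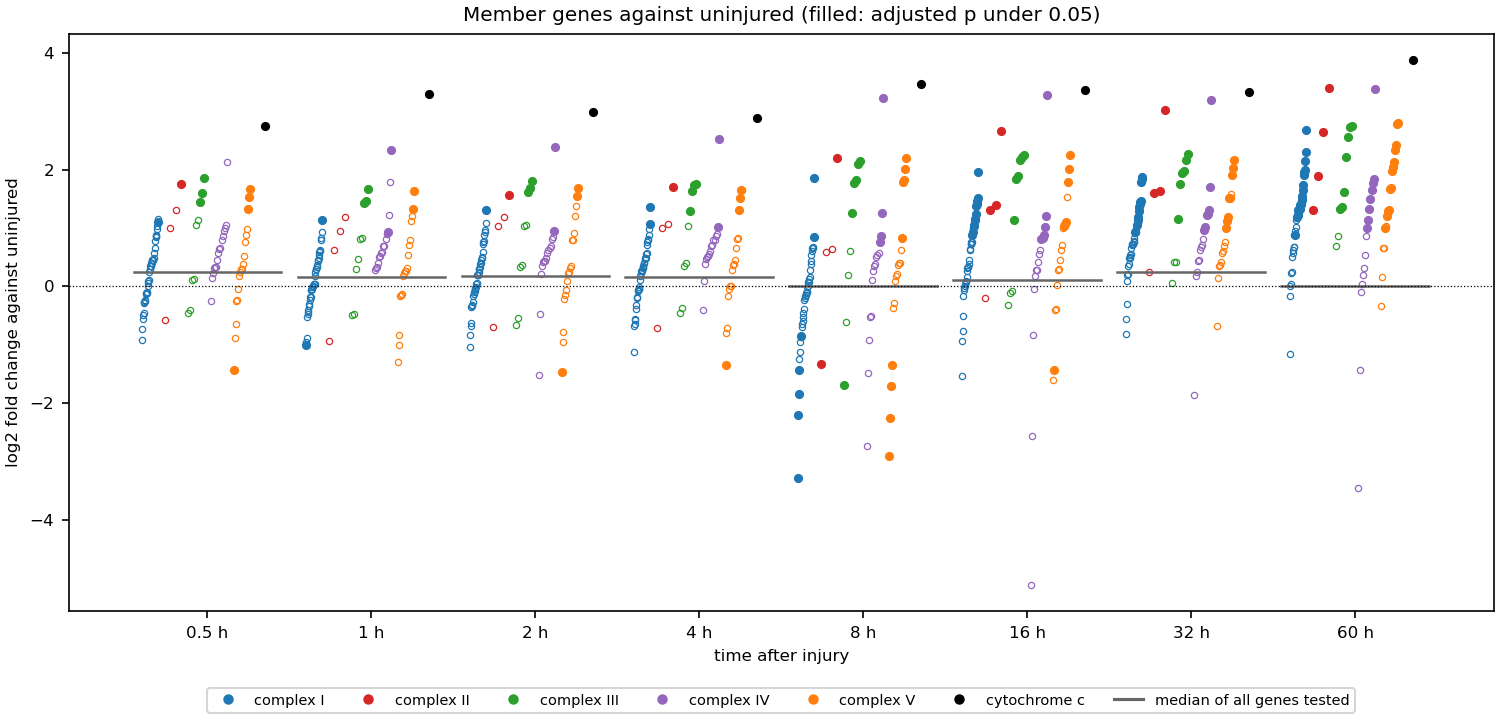
Fitted log2 fold change against uninjured (vertical axis) of each member at each time after injury (horizontal axis), coloured by complex, with filled points for adjusted p under 0.05 and Ndufa4l2 and Cox6a2 left out because uninjured cells had no count. At 8 h filled points lie on both sides of 0, 19 higher in all and 11 lower, and at 60 h all filled points are above 0.

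Cytochrome c was among the first to change. Cycs (chr6:50562563-50566538, GRCm38, minus strand) was at 25.3 and 27.2 CPM in uninjured cells, 132 and 220 CPM after 0.5 h, 293 and 289 CPM after 8 h, 325 and 217 CPM after 16 h and 395 and 379 CPM after 60 h. Every injured library was above both uninjured ones. Its log2 fold change was 2.74 at 0.5 h (adjusted p = 0.0064), 3.47 by 8 h (SE 0.50, adjusted p = 0.00182), 3.32 at 32 h (adjusted p = 0.0013) and 3.88 at 60 h (SE 0.51, adjusted p = 0.000335) by edgeR's quasi-likelihood test. The calls from 8 to 60 h held without each library of the groups compared, while those at 0.5, 2 and 4 h were lost without uninjured 1 (adjusted p = 0.0658, 0.0609 and 0.0594).

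In complex III, which passes electrons from ubiquinol to cytochrome c, the core subunits rose early. Of 9 genes 5 were higher and 1 lower at 8 h, 6 were higher at 16 h and 7 at 60 h, and the median log2 fold change was 1.26, 1.83 and 1.63. Uqcrc2 (chr7:120635176-120659524, plus strand), a core protein, was at 33.6 and 33.3 CPM in uninjured cells, 118 and 111 CPM after 8 h, 165 and 135 CPM after 16 h and 102 and 104 CPM after 60 h. Its level was highest at 16 and 32 h in library 1, and all injured libraries were above the uninjured ones. Its log2 fold change was 2.17 at 16 h (SE 0.30, adjusted p = 0.00109) and 1.62 at 60 h, and both calls held without each library. Before 8 h it was 1.86, 1.43, 1.69 and 1.63 higher at 0.5, 1, 2 and 4 h (adjusted p = 0.00413, 0.0109, 0.00594 and 0.0066), but all of these calls were lost without uninjured 1, and those at 1, 2 and 4 h also without uninjured 2. Uqcrc1 (chr9:108936633-108949623, plus strand), its partner, rose for longer, from 73.6 and 89.3 CPM to 190 and 200 CPM after 8 h, 332 and 270 CPM after 16 h and 547 and 552 CPM after 60 h. Its change at 60 h was 2.75 (SE 0.33, adjusted p = 0.00025). Uqcrfs1, the Rieske iron-sulfur protein, was 2.1 higher at 8 h (adjusted p = 0.0053) and 2.56 higher at 60 h on the log2 scale. Cyc1, cytochrome c1, was 2.73 higher at 60 h (SE 0.38, adjusted p = 0.000445). Uqcrb was 2.25 higher at 16 h (SE 0.36, adjusted p = 0.00192).

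In complex II, the succinate dehydrogenase that also serves the TCA cycle, all 4 genes were higher at 60 h, with a median log2 fold change of 2.27. Sdhd (chr9:50596357-50603812, minus strand), a membrane anchor, was at 11.7 and 26.2 CPM in uninjured cells, 89.9 and 85.4 CPM after 8 h, 126 and 113 CPM after 16 h and 193 and 210 CPM after 60 h. Its log2 fold change was 2.21 at 8 h (SE 0.45, adjusted p = 0.00584), 2.66 at 16 h (SE 0.45, adjusted p = 0.00275) and 3.41 at 60 h (SE 0.47, adjusted p = 0.000429), and these calls held without each library. Sdhc, the other anchor, was at 82 and 90.5 CPM in uninjured cells, 35.8 and 32.9 CPM after 8 h and 212 and 217 CPM after 60 h. The anchors thus moved in opposite directions at 8 h, where Sdhc was lower by edgeR's test (log2 fold change -1.33, SE 0.32, adjusted p = 0.0107, lost without any of the 4 libraries, adjusted p = 0.0529 to 0.0993). The iron-sulfur subunit Sdhb was at 45.3 and 50.5 CPM in uninjured cells, 121 and 116 CPM after 16 h and 303 and 299 CPM after 60 h (log2 fold change 2.65, SE 0.35, adjusted p = 0.000344). Sdhb at 16 h and the flavoprotein Sdha at 16 and 60 h were also called, at log2 fold changes of 1.31, 1.39 and 1.89. Those 3 calls were lost without 1 library or another, Sdha at 60 h without uninjured 1 (adjusted p = 0.0727), Sdhb at 16 h without uninjured 1, uninjured 2 or 16 h library 1 (adjusted p = 0.124, 0.0856 and 0.0834), and Sdha at 16 h without the same libraries (adjusted p = 0.211, 0.0916 and 0.193).

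Complex I, the NADH dehydrogenase, had most of its calls after 8 h. Of 39 genes tested 3 were higher and 5 lower at 8 h, both smaller shares than those of all genes called in that direction. The 3 higher include Ndufa4l2, which had no count in uninjured cells. At 16 h 13 were higher and at 60 h 21. The median log2 fold changes were -0.12, 0.65 and 1.22 at 8, 16 and 60 h. Ndufb6, an accessory subunit of the membrane arm, was at 23.8 and 28.2 CPM in uninjured cells, 100 and 87.3 CPM after 8 h, 100 and 102 CPM after 16 h and 118 and 111 CPM after 60 h. Its groups did not overlap the uninjured one, and its log2 fold change at 16 h was 1.96 (SE 0.32, adjusted p = 0.00235). Ndufs1, the largest core subunit of the electron-accepting arm, was at 47.2 and 43.7 CPM in uninjured cells, 69.2 and 76.5 CPM after 8 h and 157 and 186 CPM after 60 h (log2 fold change 1.92 at 60 h, adjusted p = 0.000795). Ndufa4, now also counted as a complex IV subunit, went from 80.8 and 67.8 CPM to 292 and 287 CPM after 60 h (1.96, adjusted p = 0.00177). At 16 h Ndufa10 and Ndufb8, further accessory subunits, were called at 1.42 (SE 0.30, adjusted p = 0.00663) and 1.38 (SE 0.30, adjusted p = 0.00835), and lost without uninjured 2 (0.0755) and uninjured 1 (0.1) respectively. Ndufv1, which binds NADH, went from 79.2 and 86 CPM to 210 and 250.3 CPM at 60 h (1.48, adjusted p = 0.00606, lost without uninjured 1, 0.0601, or 60 h library 2, 0.0519).

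Complex IV, the cytochrome c oxidase, held both a strongly raised subunit and subunits that did not pass the test. Cox5a (chr9:57521274-57532426, plus strand) was at 17.3 and 25.6 CPM in uninjured cells, 204 and 200 CPM after 8 h, 231 and 185 CPM after 16 h and 216 and 231 CPM after 60 h. Its level lay between 174 and 231 CPM in all 8 libraries from 8 to 60 h, above both uninjured ones. The log2 fold change was 3.23 at 8 h (SE 0.71, adjusted p = 0.0082), 3.28 at 16 h (SE 0.72, adjusted p = 0.00817) and 3.38 at 60 h (SE 0.72, adjusted p = 0.00486). The call at 60 h held without each library, and those at 8 and 16 h were lost without uninjured 1 (adjusted p = 0.0628 and 0.0743), the latter also without 16 h library 1 (0.0552). Cox4i1, the most abundant member per kilobase in uninjured cells, was at 386 and 410 CPM there, 480 and 482 CPM after 16 h and 495 and 488 CPM after 60 h. Its log2 fold change was 0.28 at 16 h (adjusted p = 0.472) and 0.31 at 60 h (adjusted p = 0.401), which did not pass edgeR's test. Cox6a1 was at 169 and 125 CPM in uninjured cells and at 156 and 148 CPM after 60 h, within the uninjured range. Cox7a2l, an assembly factor of supercomplexes, was at 107 and 123 CPM in uninjured cells and 124 and 138 CPM after 60 h (0.19, adjusted p = 0.826). Between these, Cox7a2 (54.8 and 50.7 to 162 and 168 CPM, 1.64 on the log2 scale), Cox5b (45.7 and 54.8 to 124 and 127 CPM, 1.32) and Cox8a (144 and 134 to 294 and 316 CPM, 1.14) were called higher at 60 h, Cox8a being lost without any of the 4 libraries. At 16 h Cox7a2 (1.02, SE 0.26, adjusted p = 0.0153) and Cox7c (1.21, SE 0.32, adjusted p = 0.0189) were called with all libraries and lost without any of the 4. In all, 4 of 17 genes of complex IV tested were higher at 8 h, 6 at 16 h and 8 at 60 h.

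In complex V the alpha and beta subunits of the catalytic head were called higher at every time from 0.5 h on. Atp5b (chr10:128083273-128090391, plus strand), the beta subunit, was at 349 and 313 CPM in uninjured cells, 829 and 1284 CPM after 0.5 h, 1500 and 1549 CPM after 8 h, 1955 and 1211 CPM after 16 h and 2190 and 2411 CPM after 60 h. No injured library overlapped the uninjured ones, and the log2 fold change was 2.20 at 8 h (SE 0.39, adjusted p = 0.00337), 2.26 at 16 h (SE 0.39, adjusted p = 0.00275) and 2.80 at 60 h. Atp5a1, the alpha subunit, went from 207 and 212 CPM to 713 and 732 CPM after 8 h, 996 and 693 CPM after 16 h (2.01, SE 0.33, adjusted p = 0.00235) and 1031 and 1218 CPM after 60 h (2.42). Both genes held these 16 and 60 h calls without each library. At 0.5 h Atp5b was 1.67 higher (adjusted p = 0.0176) and Atp5a1 1.53 higher (adjusted p = 0.0141). The calls of both genes at 0.5, 1, 2 and 4 h were lost without uninjured 1, without uninjured 2, and without 1 library of the injured group, which was library 2 at 0.5, 1 and 4 h and library 1 at 2 h. Atp5f1, of the peripheral stalk, was 1.79 higher at 16 h (SE 0.39, adjusted p = 0.0082), lost without uninjured 1 (0.0695) or 16 h library 1 (0.0688). Atp5c1, the gamma subunit of the central stalk, was at 89.5 and 97.8 CPM in uninjured cells, 110 and 101 CPM after 8 h and 460 and 485 CPM after 60 h (2.34, adjusted p = 0.00349). Atp5mpl, a small membrane subunit, was at 36.6 and 29.7 CPM in uninjured cells, 44.1 and 43.1 CPM after 8 h and 141 and 151 CPM after 60 h (2.14). Of the 3 genes of subunit c, which forms the rotor ring, Atp5g1 was 1.67 higher (adjusted p = 0.00135) and Atp5g3 1.68 higher at 60 h (adjusted p = 0.00602, lost without uninjured 2, 0.0549), while Atp5g2 was at 1.03 (adjusted p = 0.125). By edgeR's test 5 of 18 genes were higher and 4 lower at 8 h, 6 higher and 1 lower at 16 h, and 13 higher at 60 h.

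Between times of the injured cells fewer members were called. From 8 to 16 h edgeR's quasi-likelihood test called 0 of 88 members (0.0089% of all genes, 0.00445% in each direction), with 24 at an unadjusted p under 0.05, all 24 higher, and DESeq2 called 1. From 16 to 60 h it called 15 higher and 1 lower (12.8% of all genes, 5.72% higher, 7.08% lower). Atp5o (chr16:91925214-91931687, minus strand), the stalk subunit that confers oligomycin sensitivity, rose by 1.43 (SE 0.26, adjusted p = 0.00462). Uqcr10, a small complex III subunit, was at 60.5 and 71.3 CPM after 16 h and 183 and 180 CPM after 60 h (1.46, SE 0.28, adjusted p = 0.00578). These calls were lost without 16 h library 2 (adjusted p = 0.053) and 16 h library 1 (0.0645) respectively. The count of 16 was 2 without 60 h library 1, 2 without 60 h library 2, 2 without 16 h library 1 and 1 without 16 h library 2, and 37 with DESeq2.

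At 8 h members of several complexes were called in each direction, in shares not far from those of all genes. The 19 higher genes were 21.6% of the 88 tested, beside 16.1% of all genes, and the 11 lower genes were 12.5%, beside 14% of all genes. The lower genes were Ndufv3, Ndufa13, Ndufa6, Ndufc1 and Ndufb7 of complex I, Sdhc, Uqcr11, and Atp5s, Atp5e, Atp5g2 and Atp5k of complex V. Atp5e (chr2:174461072-174464105, minus strand) was at 278 and 196 CPM in uninjured cells, 52 and 47.4 CPM after 8 h, 78.7 and 96.1 CPM after 16 h and 184 and 190 CPM after 60 h. It was lowest at 8 h and near the lower uninjured library at 60 h. The log2 fold change was -2.25 at 8 h (SE 0.41, adjusted p = 0.004), a call that held without each library, and -0.34 at 60 h (adjusted p = 0.537). It was also the member called lower at 0.5, 2 and 4 h (-1.44, -1.47 and -1.35, adjusted p = 0.04, 0.0386 and 0.0481), calls that were lost without either uninjured library. At 1 h the lower member was Ndufb7 (-1.01, SE 0.29, adjusted p = 0.0445, lost without any of the 4 libraries). Ndufa13 (chr8:69894180-69902558, minus strand) was at 117 and 117 CPM in uninjured cells, 26.4 and 24.5 CPM after 8 h and 107 and 103 CPM after 60 h. Its log2 fold change was -2.20 at 8 h (SE 0.50, adjusted p = 0.00937, lost without either 8 h library, 0.0685 and 0.0818) and -0.16 at 60 h (adjusted p = 0.841). Ndufv3, an accessory subunit of the NADH-binding module, went from 79.4 and 79.4 CPM to 8.94 and 7.27 CPM after 8 h and 36 and 35.3 CPM after 60 h. Its log2 fold change at 8 h was -3.29 (SE 0.93, adjusted p = 0.0214). Atp5k (45 and 32.1 to 15.6 and 14.7 CPM, -1.35), Atp5g2 (105 and 86.9 to 31.5 and 27 CPM, -1.71) and Uqcr11 (82.4 and 81.1 to 26.2 and 24.4 CPM, -1.69) were called lower at adjusted p = 0.0217, 0.0227 and 0.0113. Of these, Ndufv3, Atp5k, Atp5g2 and Uqcr11 were lost without any of the 4 libraries. Ndufv3, Uqcr11, Atp5k, Atp5s and Ndufa6 were chosen for naming after their values were seen. The count of 30 at 8 h was 10 without uninjured 1, 14 without uninjured 2, 12 without 8 h library 1 and 13 without 8 h library 2.

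**Figure D3:**
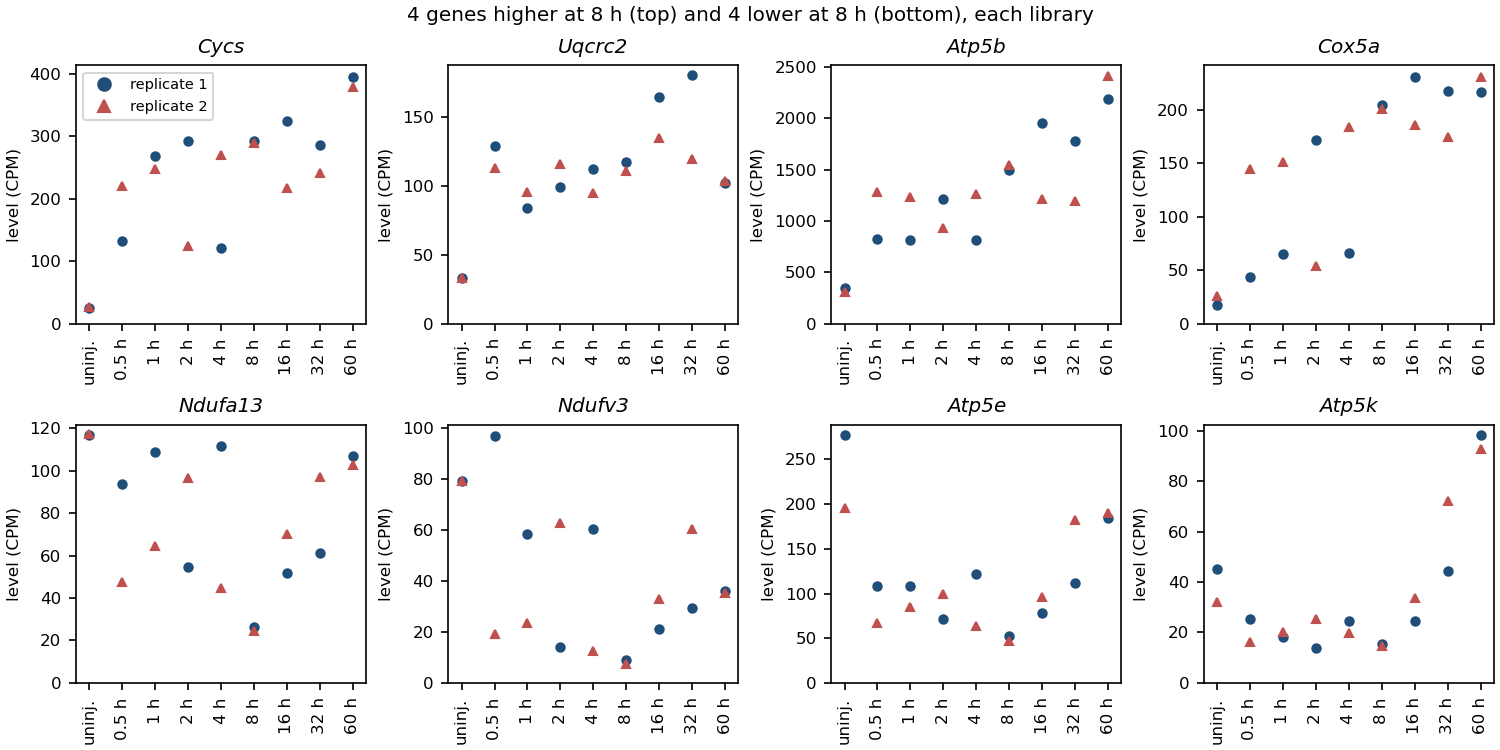
Level in each library (vertical axis, CPM from 0) of Cycs, Uqcrc2, Atp5b and Cox5a (top) and of Ndufa13, Ndufv3, Atp5e and Atp5k (bottom) against group (horizontal axis), with circles for replicate 1 and triangles for replicate 2. The top genes are above their uninjured libraries at 8 h and the bottom genes below, and from 0.5 to 4 h the 2 libraries of a group lie apart for several of them.

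From 0.5 to 4 h most members differed in level between the libraries of a group in the same direction, and the genes higher at 8 h mostly differed the other way. At 0.5 h all 11 genes lower at 8 h were higher in library 1 than in library 2, and 16 of the 19 genes higher at 8 h were higher in library 2. At 1 h the counts were 9 of 11 and 15 of 19 in the same libraries. At 2 h they were 11 and 16 with library 2 the higher for the lower genes, and at 4 h 11 and 16 with library 1 the higher for them. Of the 58 members not called at 8 h, 49, 41, 46 and 44 went the way of the 11 lower genes after 0.5, 1, 2 and 4 h, so that direction was that of most members. The library with the lower level of the 11 genes was in each group the one with the higher Myod1, and the part of that difference between libraries in the early results was not tested. Ndufv3, for example, was at 97 and 19.1 CPM after 0.5 h, 58.6 and 23.4 CPM after 1 h, 14.1 and 62.7 CPM after 2 h and 60.5 and 12.5 CPM after 4 h. Of the 19 higher genes 16 were called higher at 60 h, of the 11 lower genes 2, and of the 58 others 36. The calls at 8 and 60 h share the uninjured libraries, so these counts are not independent of the split. The median exon length was 2101 bases for the higher genes, 1756 for the lower and 1423 for the others.

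Letter patterns of known regulators were found in some of the promoters. RefSeq (GRCm38.p6) gave 300 bases around the start, 250 before and 50 after, for 70 of the 92 genes. NRF1, named for nuclear respiratory factor, binds promoters of many respiratory chain genes, and GABPA, also called NRF2 alpha, and YY1 are other such factors. Shares are of genes, and a gene could have more than 1 start searched, as Ndufa5 had. Searched on both strands, the NRF1 motif GCGCA, any 1 base, GCGC was found in 17 of 70 members (24.3%) and in 5.19% of 27025 genes with promoters of the same length. The GABPA motif ACTTCCGG was found in 5 (7.14%) and 4.31%, and the YY1 motif AAGATGGCG in 7 (10%) and 1.64%. Any of the 3 was found in 27 members (38.6%) and 10.3% of all. A match is a match of letters, not a measured binding site. The 120 bases just before the start are shown for 2 complex II genes higher at 16 and 60 h and for 3 genes lower at 8 h. They run 5′ to 3′ on the gene's own strand, with the motif in capitals. All 5 carry a match in these bases, so they do not stand for their groups. Sdhb, also of complex II and higher at 16 and 60 h, had a promoter sequence but no match. The 5 genes shown are on the minus strand. Uqcr11 carries the reverse complement of the GABPA motif while the others carry the NRF1 motif.
Sdhd, chr9:50603850-50603969: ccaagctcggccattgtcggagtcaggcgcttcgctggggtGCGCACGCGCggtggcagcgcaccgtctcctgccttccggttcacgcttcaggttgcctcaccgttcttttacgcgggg
Sdha, chr13:74350241-74350360: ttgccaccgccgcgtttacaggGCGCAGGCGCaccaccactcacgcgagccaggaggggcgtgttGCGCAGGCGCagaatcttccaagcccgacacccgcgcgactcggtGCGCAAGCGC
Atp5g2, chr15:102671048-102671167: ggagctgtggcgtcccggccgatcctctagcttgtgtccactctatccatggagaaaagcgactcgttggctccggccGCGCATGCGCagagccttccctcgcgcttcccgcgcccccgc
Atp5k, chr5:108434400-108434519: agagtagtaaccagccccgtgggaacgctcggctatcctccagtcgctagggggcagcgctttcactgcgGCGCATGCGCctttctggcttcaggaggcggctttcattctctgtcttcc
Uqcr11, chr10:80406822-80406941: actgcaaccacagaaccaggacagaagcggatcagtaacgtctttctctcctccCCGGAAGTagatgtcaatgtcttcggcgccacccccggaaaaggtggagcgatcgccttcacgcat
Of the genes with a promoter sequence, a match to any of the 3 motifs was found in 2 of 14 higher at 8 h (Sdhd and Uqcrc1), 5 of 10 lower at 8 h (Ndufa6, Ndufc1, Uqcr11, Atp5g2 and Atp5k) and 20 of 45 not called at 8 h. These counts carry no test.

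Regulators of these genes moved in both directions at 8 h. Of 13 regulators 5 were higher and 2 lower at 8 h, 4 and 2 at 16 h, and 2 and 1 at 60 h. The share lower at 8 h was near that of all genes. Tfam, which packages and transcribes mitochondrial DNA, was, on the scale of all 30 libraries, at 7.63 and 10.4 CPM in uninjured cells and at 99 and 116 CPM after 8 h (log2 fold change 3.54, SE 0.74, adjusted p = 0.00679 by edgeR). Gabpa (3.01), its partner Gabpb1 (4.30), Tfb2m (3.88) and Nrf1 (1.40) were also higher. Ppargc1b, a coactivator of mitochondrial genes, was at 9.92 and 8.14 CPM in uninjured cells, 0.95 and 0.918 CPM after 8 h and 34.4 and 23.6 CPM after 60 h, and its change at 8 h was -3.30 (adjusted p = 0.0264). Tfb1m was also lower at 8 h (-5.21, adjusted p = 0.00386). Among 47 assembly factors tested, 7 were higher and 8 lower at 8 h, 13 higher at 16 h, and 21 higher and 1 lower at 60 h. Both shares at 8 h were near those of all genes. Of 13 TCA cycle genes 6 were higher at 8 h, 9 at 16 h and 11 at 60 h.

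The subunits encoded in the mitochondrial genome went the other way from 0.5 to 60 h. Of 13, edgeR's test called 9, 4, 11, 10 and 4 lower at 0.5, 8, 16, 32 and 60 h. The shares of all genes called lower at these times, given above, were smaller. The median log2 fold change of the 13 was -1.03 at 16 h and -0.64 at 60 h. Their summed level was 33840 and 24410 CPM in uninjured cells, 13220 and 14860 CPM after 16 h, and 18140 and 19460 CPM after 60 h. After 14 days it was 81080 and 75760 CPM, above both uninjured libraries, as the nuclear sum also was. The ratio of this sum to the sum of the nuclear genes was 5.87 and 4.21 in uninjured cells and 1.08 and 1.12 at 60 h, with no overlap. It was 5.10 and 4.97 at 14 days and 9.63 and 4.49 at 28 days. Library construction started from polyadenylated RNA of fixed cells, and its part in the ratio was not tested.

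**Figure D4:**
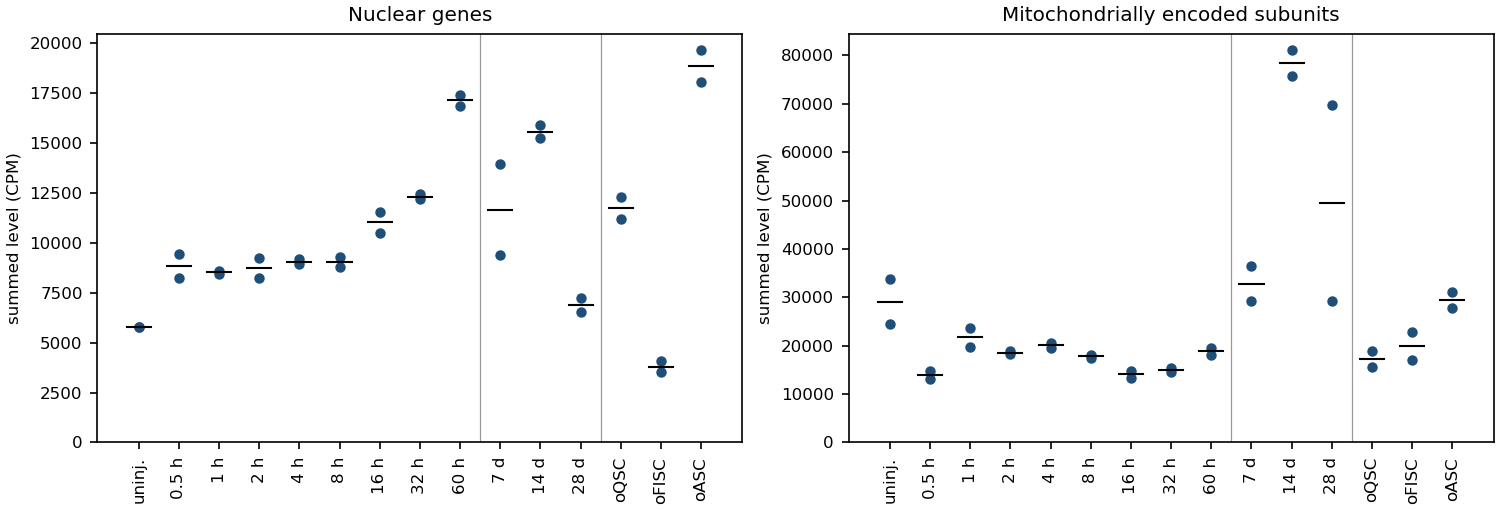
Summed level of the nuclear respiratory chain genes and of the 13 mitochondrially encoded subunits (vertical axes, CPM from 0) against group (horizontal axis), with 1 point per library. From uninjured to 60 h the nuclear sum rises from 5768 and 5795 to 16860 and 17400 CPM while the mitochondrial sum lies at 33840 and 24410 and then at 18140 and 19460 CPM.

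At 7 and 14 days many members were still above uninjured cells, and at 28 days few were. These groups come from another deposited table than the uninjured libraries, so table and group cannot be told apart. With all 30 libraries fitted together, edgeR's test called 39 of 90 members higher and 0 lower at 7 days (11.2% of all genes, 5.84% higher, 5.35% lower). It called 62 and 0 at 14 days (12.8%, 6.51% higher, 6.33% lower), and 5 and 1 at 28 days (6.49%, 2.29% higher, 4.2% lower). The members' median log2 fold change was 1.11, 1.54 and 0.39, beside 0 for all genes at each time. At 14 days 31 of 40 complex I genes, 2 of 4 in complex II, 7 of 9 in complex III, 11 of 18 in complex IV and 10 of 18 in complex V were higher, so complex I had the highest median, 1.70. Cox7c, a small complex IV subunit, was at 43.7 and 37.4 CPM in uninjured cells, 173 and 250 CPM after 7 days, 229 and 205 CPM after 14 days and 65.5 and 62.5 CPM after 28 days. All 6 later libraries were above the uninjured ones, and its log2 fold change was 2.38 at 7 days (SE 0.31, adjusted p = 6.03e-05) and 2.42 at 14 days (SE 0.31, adjusted p = 0.0001). Atp5o was 1.93 higher at 7 days (SE 0.29, adjusted p = 0.000236) and 2.41 higher at 14 days (SE 0.30, adjusted p = 6.86e-05). Both genes held at both times without each library. Markers of other cell types moved with these groups. The 8 pericyte and smooth muscle markers summed to 152 and 97.6 CPM in uninjured cells, 259 and 348 CPM after 7 days, 348 and 772 CPM after 14 days and 142 and 104 CPM after 28 days, most of it Acta2, at 123 and 68.4 CPM in uninjured cells and 278 and 746 CPM after 14 days. At most 1 of these 8 markers was at 0 in any of the 8 libraries. The 12 myofibre markers summed to 369 and 246 CPM in uninjured cells and 596 and 547 CPM after 14 days, and the 8 fibro-adipogenic markers to 1324 and 1178 CPM and 2305 and 1706 CPM. Their part in the members' levels was not tested.

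At 28 days the members called first were Uqcrc2 (74.4 and 78.3 CPM against 32.9 and 33, log2 fold change 1.21, SE 0.27, adjusted p = 0.0102) and Ndufa10 (1.38, SE 0.32, adjusted p = 0.0121), both lost without more than 1 of the 4 libraries. Sdhc was lower, at 20.1 and 35.1 CPM against 80.4 and 89.7 CPM (-1.62, SE 0.37, adjusted p = 0.0111, lost without 28 days library 1, 0.139). The count of 39 at 7 days was 10 and 9 without uninjured 1 and 2, and 30 and 8 without 7 days library 1 and 2. The count of 62 at 14 days was 19 and 21 without uninjured 1 and 2, and 34 and 41 without 14 days library 1 and 2. The count of 6 at 28 days was 1 without either uninjured library, 0 without 28 days library 1 and 4 without library 2.

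Within the table of 7, 14 and 28 days alone, edgeR's quasi-likelihood test called 0 of 88 members between 14 and 7 days (0.0531% of all genes, 0.0472% higher, 0.0059% lower), with 7 at an unadjusted p under 0.05 and 3 by DESeq2. Between 28 and 7 days it also called 0 (0.295% of all genes, 0.0826% higher, 0.212% lower). There 28 members were lower at an unadjusted p under 0.05, DESeq2 called 15, and edgeR without a filter on low counts called 6. The median log2 fold change of the members from 7 to 28 days was -0.71.

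Set against 60 h, 2 members were higher and 16 lower at 7 days (16.8% of all genes, 7.89% higher, 8.86% lower), with a median change of -0.12. The lower ones were 3 of complex I, 2 of complex II, 3 of complex III, 7 of complex V and Cycs, and none of the 18 genes of complex IV was called. Atp5b was at 2170 and 2390 CPM after 60 h and 477 and 583 CPM after 7 days, a log2 fold change of -2.11 (SE 0.34, adjusted p = 0.000238). Atp5a1 was at 1022 and 1207 CPM and then at 318 and 394 CPM (-1.65, SE 0.30, adjusted p = 0.000623). Both calls held without each library. The count of 18 was 7 and 8 without 60 h library 1 and 2, and 6 and 12 without 7 days library 1 and 2. The higher ones, the small complex I subunits Ndufb2 (1.07) and Ndufa1 (0.97), were lost without at least 1 library.

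Old cells taken without injury had higher levels of many members than younger uninjured cells. The groups are in different tables, and they also differed in Pax7 and Myod1 as given above, and these cannot be told apart from age. edgeR's test called 36 members higher and 3 lower of 90 (21.6% of all genes, 12.3% higher, 9.31% lower), and their median change on the log2 scale was 0.89 beside 0.49 for all genes tested. Uqcrc1 was at 72.1 and 88.5 CPM in uninjured cells and 566 and 476 CPM in oQSC (2.70, SE 0.32, adjusted p = 6.14e-06). Cycs was at 24.8 and 27 CPM and then at 313 and 244 CPM (3.43, SE 0.44, adjusted p = 1.57e-05). The 3 lower genes were all of complex V. Atp5g2 was at 103 and 86.1 CPM in uninjured cells and 22.6 and 19 CPM in oQSC (-2.18, SE 0.46, adjusted p = 0.00168), Atp5e at 272 and 194 CPM and 66.2 and 57.7 CPM (-1.91, SE 0.39, adjusted p = 0.00138), and Atp5k at 44.1 and 31.8 CPM and 16.1 and 13.1 CPM (-1.37, adjusted p = 0.0197). These 3 genes were also called lower at 8 h, a comparison that shares the uninjured libraries. The count of 39 was 19 and 27 without uninjured 1 and 2, and 23 and 33 without oQSC library 1 and 2. The mitochondrially encoded subunits were lower, 10 of 13.

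In old cells after injury, 12 of 18 complex V genes and smaller shares of the other complexes were higher. Against oQSC edgeR's test called 37 of 90 members higher and 8 lower in oASC (40.3% of all genes, 19% higher, 21.3% lower), and their median change on the log2 scale was 0.47 beside -0.33 for all genes tested. By complex, 13 of 40 complex I genes were higher and 5 lower, 2 of 4 in complex II and 3 of 9 in complex III were higher, 7 of 18 in complex IV were higher and 3 lower, and 12 of 18 in complex V were higher, while Cycs was not called. On the scale of the old libraries, Atp5g2 was at 19.7 and 16.1 CPM in oQSC and 143 and 150 CPM in oASC (3.03, SE 0.21, adjusted p = 1.86e-05). Atp5mpl was at 33.1 and 27.6 CPM and then 99.9 and 124 CPM (1.88, SE 0.22, adjusted p = 0.000233). Atp5b and Atp5a1 were higher by 1.31 (adjusted p = 0.00272) and 1.17 (adjusted p = 0.00302). The lower genes were Ndufb2 (103 and 84.4 to 38.5 and 40.2 CPM, -1.25, SE 0.22, adjusted p = 0.00241), Ndufa1, Ndufa13, Ndufb11 and Ndufv3 of complex I and the isoform genes Cox4i2, Cox6b2 and Cox8b of complex IV. The count of 45 was 34 and 31 without oQSC library 1 and 2, and 31 and 26 without oASC library 1 and 2. Of the mitochondrially encoded subunits 10 of 13 were higher, with a median of 1.24.

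Freshly isolated old cells had lower levels of nearly all members than oQSC. The labels record BaCl2 injury for oFISC and no injury for oQSC, and whether the oFISC cells were fixed is unclear. Isolation, injury and fixation thus cannot be told apart in this comparison. edgeR's test called 82 of 90 lower and 1 higher in oFISC against oQSC (41.9% of all genes, 19.3% higher, 22.6% lower), and their median change on the log2 scale was -2.13 beside 0.52 for all genes. Lower were 37 of 40 genes of complex I, 4 of 4 of complex II, 9 of 9 of complex III, 13 of 18 of complex IV, 18 of 18 of complex V, and Cycs. Uqcr11, a small complex III subunit, was at 192 and 149 CPM in oQSC and 16.8 and 16.4 CPM in oFISC (-3.36, SE 0.22, adjusted p = 9.89e-05). Ndufs8, an iron-sulfur subunit of complex I, was at 138 and 111 CPM and then 14.8 and 12.3 CPM (-3.20, SE 0.22, adjusted p = 9.89e-05). The gene called higher was the testis isoform Cox7b2, with 49 counts in oFISC and 3 in oQSC, a ratio of 33.9 with a 95% interval from 10.9 to 170 for counting error only. Its call was lost without oQSC library 2 or either oFISC library. TCA cycle genes (12 of 13) and assembly factors (36 of 47) were lower too. The oFISC libraries had 42760 and 45441 genes with a count, against at most 33658 in any other library. Repeat gene models took 62.8 and 30.7% of their counts, and the 12 myofibre markers summed to 866 and 96.2 CPM. On the scale of all 30 libraries the 10 satellite cell markers summed to 22170 to 25000 CPM in oQSC and to 9397 to 9908 CPM in oFISC. The part of these in the lower levels was not tested. The count of 83 was 79 to 81 without each library.

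Old and younger cells were compared at the same time after injury, 2.5 days or 60 h, and then by their responses, since their uninjured groups did not start from the same level. Between oASC and 60 h edgeR's test called 1 of 90 members, Uqcrc2 (2.2% of all genes, 1.17% higher, 1.03% lower), and DESeq2 called 6. At an unadjusted p under 0.05 there were 8. The log2 fold change of Uqcrc2 was 1.33 (SE 0.27, adjusted p = 0.0115). It was at 102 and 103 CPM after 60 h and 243 and 271 CPM in oASC, and the call was lost without any of the 4 libraries. The difference of the injury responses, oASC against oQSC minus 60 h against uninjured, was called for 11 members, all lower in old cells (7.28% of all genes, 3.29% higher, 3.99% lower), and its median over the members was -0.88 beside -0.20 for all genes. They were 5 of complex I (Ndufa9, Ndufa12, Ndufb6, Ndufb8 and Ndufb10), 2 of complex II (Sdha and Sdhb), 3 of complex III (Uqcrc1, Uqcrb and Uqcrfs1) and Cycs. None of the 18 genes of complex IV and none of the 18 of complex V was called by edgeR's test, where 2 members in all were higher and 33 lower at an unadjusted p under 0.05. DESeq2 called 32 members. Sdhb was at 44.4 and 50.1 CPM in uninjured cells, 300.2 and 297 CPM after 60 h, 294 and 221 CPM in oQSC and 262 and 272 CPM in oASC. Its level in oASC was within the range of oQSC, which does not stand for all 11 genes. Mean levels were higher in oASC than in oQSC for Cycs, Uqcrc1, Uqcrb, Uqcrfs1, Ndufb6 and Ndufa9. They were lower for Ndufa12, Ndufb8, Ndufb10 and Sdha. Uqcrfs1, for example, went from 128.9 to 229.4 CPM per kb, and Ndufb10 from 153.1 to 112.4 CPM per kb. The count of 11 was 3 and 5 without uninjured 1 and 2, 5 and 3 without 60 h library 1 and 2, 3 and 7 without oQSC library 1 and 2, and 3 and 4 without oASC library 1 and 2.

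**Figure D5:**
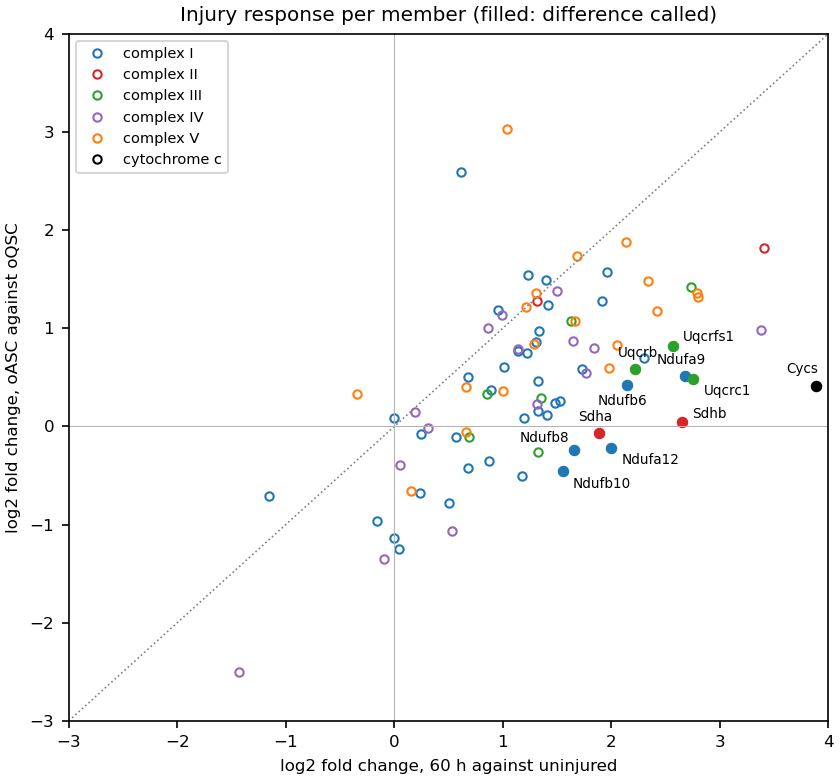
Log2 fold change after injury in old cells (vertical axis, oASC against oQSC) against that in younger cells (horizontal axis, 60 h against uninjured), with 1 point per member for 86 members, each fold change from the fit of its own table, and 2 members left out for folds beyond 4. The 11 filled points, with adjusted p under 0.05 for the difference, all lie below the dotted line of equal change, with Cycs at 3.88 in younger and 0.41 in old cells.

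The tissue isoform genes Cox4i2, Cox6a2, Cox7a1 and Cox8b of complex IV were at low levels in all libraries. Cox6a2, the heart and muscle form of subunit 6a, had no count in either uninjured library and reached at most 5.48 CPM, in oFISC library 1, the library with the highest sum of myofibre markers. At 14 days it had 41 and 16 counts, at least 24.4-fold above a floor of 3 counts over the uninjured group. Cox4i2 reached at most 3.2 CPM, at 14 days in library 1. Cox7a1 reached at most 10.5 CPM, at 14 days in library 1, and Cox8b 15.2 and 9.12 CPM after 14 days. The widespread forms Cox6a1, Cox7a2 and Cox8a lay between 31.2 and 488 CPM over the same libraries. In old cells Cox8b was at 4.01 and 3.84 CPM in oQSC and 0.0868 and 0 CPM in oASC, where it rested on 5 and 0 counts (-6.42, SE 0.88, adjusted p = 0.000598). The genes most like these in level over the 30 libraries, by Pearson's r of log2 CPM, were Tcea3 for Cox4i2 (0.809), Pate4 for Cox6a2 (0.809), Gm33195 and Cox8b for Cox7a1 (0.832 and 0.83) and Fhit for Cox8b (0.911). All are sparse and share libraries and depth, and no test was made.

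Ndufa4l2, a hypoxia-responsive relative of Ndufa4, had no count in uninjured cells or at 60 h. It had 54 and 39 counts at 4 h, at least 21.4-fold above the floor of 3 counts, and the bound was 11.6-fold at 0.5 h, 11.7-fold at 1 h, 4.67-fold at 2 h, 4.84-fold at 8 h, 3.4-fold at 16 h and 11.6-fold at 32 h, with 25 and 45 counts there. It was 10.3-fold at 14 days (24 and 0 counts) and 12.8-fold at 28 days (29 and 6 counts), so the bounds followed no single direction over time. Its level never passed 2.18 CPM. At 16 h it was at least 4.93-fold higher than at 60 h. The floors cover counting error only.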

How the data were processed

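The 3 gene tables of raw counts deposited by the authors were used (18, 6 and 6 libraries). Per the labels' protocols, RNA was isolated with an FFPE kit, cDNA was made with SMART-Seq v4 and tagmented libraries were sequenced in pairs on a DNBSEQ-G400. The submitters' processing notes name Trimmomatic 0.36, HISAT2 2.1.0, SAMtools 1.3, StringTie 1.3.3 and mm10. How reads that map to several genes were counted is not given in the sources used here, so genes with near-identical processed copies are uncertain, as are overlapping genes.

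From the counts, edgeR 4.0.16 (R 4.3.3) was run with TMM scaling, a filter on low counts (at least 10, in total 15) and the quasi-likelihood F test on group means, once per table and once on all 30 libraries over matched identifiers. P-values were adjusted by Benjamini-Hochberg over all genes tested (threshold 0.05). DESeq2 1.42.0, RLE scaling, no filter, a replicate block, removal of repeat gene models and leaving out each library were alternatives. The unit of time-course levels is the scale of its own table, and comparisons across tables use the scale of all libraries. A test on simulated data preceded the fits. Atp5md is listed as Usmg5 and Atp5s as Dmac2l in some tables and was followed by identifier. Coordinates and exon lengths are from the GENCODE annotation of GRCm38. The symbol Atp5o stands for 2 identifiers, of which ENSMUSG00000116933.1 has no counts.

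Genes named are a panel of subunits, the 3 members of each complex with the smallest p at 16 h, the 2 with the smallest p in each direction elsewhere, and the nearest genes of 4 isoforms. The members and lists were chosen with earlier results of these data known. Promoters were searched by exact match. With genes that had no count in 1 group put at their bound, the members' median moved from 0.34 to 0.33 at 1 h and from 0.89 to 0.83 in oQSC, and not elsewhere.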

Additional observations from a re-analysis of the deposited data

Results flagged for a closer look

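The responses of old and younger cells to injury differed by a direct test for 11 members. The value is the log2 fold change of oASC against oQSC minus that of 60 h against uninjured, from edgeR's quasi-likelihood test with Benjamini-Hochberg adjustment. It was -3.46 for Cycs (SE 0.58, adjusted p = 0.00129), -2.61 for Sdhb (SE 0.46, adjusted p = 0.00152) and -2.26 for Uqcrc1 (SE 0.43, adjusted p = 0.00279). These 3 held without each of the 8 libraries.

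In complex I the difference was -2.21 for Ndufa12 (adjusted p = 0.0115), -1.89 for Ndufb8 (adjusted p = 0.0145), -1.71 for Ndufb6 (adjusted p = 0.0259), -2.00 for Ndufb10 (adjusted p = 0.0271) and -2.17 for Ndufa9 (adjusted p = 0.0276). It was -1.96 for Sdha (adjusted p = 0.0344), -1.63 for Uqcrb (adjusted p = 0.0436) and -1.74 for Uqcrfs1 (adjusted p = 0.0446). Each of these 8 was lost without several of the libraries, without uninjured 1 in every case (adjusted p = 0.0763 to 0.237). In oQSC all 11 genes were above both uninjured libraries. The oQSC and uninjured levels are part of the difference that selected these genes, so this is no separate result. Old and younger cells are in different tables and their uninjured groups differ in Pax7 and Myod1, so age, table and state cannot be told apart.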

How the results depend on the processing

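Counts are members called. Without a filter on low counts they were 22 at 16 h, 23 at 32 h, 23 at 7 days, 2 at 28 days, 9 for 7 days against 60 h, 6 for 60 h against 16 h, 6 for 28 against 7 days and 0 for oASC against 60 h. DESeq2 gave 23, 22, 26 and 30 at 0.5, 1, 2 and 4 h, 1 for 16 h against 8 h, 37 for 60 h against 16 h, 3 for 14 and 15 for 28 against 7 days, 12 at 28 days, 6 for oASC against 60 h and 32 for the difference of injury responses. RLE size factors gave 22 at 16 h. They moved the median of all genes by over 0.1 at 2, 4, 16 and 32 h and in oFISC and oQSC. For oASC against 60 h that median was 0.08 with RLE size factors. It was 0.26 there with the replicate block and 0.32 without repeat gene models. Replicate numbers only name libraries: the correlation of same-numbered deviations ran from -0.836 to 0.794 over the time course. With the replicate block the counts were 7, 6 and 7 at 0.5, 1 and 2 h and 10 for 60 h against 16 h.

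Alternatives added after seeing the data left out doubted libraries. Without 0.5 to 4 h, 16 h against 8 h gave 12 and 60 h against 16 h gave 37. Without these and oFISC, 28 days gave 16, oASC against 60 h gave 4 and the difference of responses 27.

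Leaving out each library gave 0 to 9 at 0.5 h, 1 to 7 at 1 h, 0 to 8 at 2 h, 0 to 14 at 4 h, 10 to 14 at 8 h, 10 to 17 at 16 h, 12 to 24 at 32 h, 33 to 40 at 60 h and 21 to 50 for any change. It gave 1 to 2 for 60 h against 16 h, 8 to 30 at 7 days, 19 to 41 at 14 days, 0 to 4 at 28 days, 6 to 12 for 7 days against 60 h, 19 to 33 for oQSC against uninjured, 26 to 34 for oASC against oQSC, 79 to 81 for oFISC, 0 for oASC against 60 h and 3 to 7 for the difference of responses. It gave 0 for 16 h against 8 h and for 14 and 28 against 7 days. The cause of these shifts was not tested. Of 298 named calls, 127 held without each library. Ndufa4l2 at 14 days had no counts in the remaining library when 14 days library 1 was left out, with a fitted fold of 0 (adjusted p = 1), and 8.49 without library 2, which is no bound. Depth limits the rarest members: Cox8c had 6 counts and Cox7b2 52 in all 30 libraries.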
